A study of Rattus norvegicus with 12 samples.

Results

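The genes described here drive cells from the G1 phase of the cell cycle into S phase or copy DNA once S phase has begun. A cell in G1 makes D-type cyclins, whose kinases phosphorylate the retinoblastoma protein and so release E2F transcription factors. E2F switches on cyclin E, the proteins that load and start the replication helicase, the polymerases and the enzymes that make deoxynucleotides. Rat cardiomyocytes still divide around birth and largely leave the cycle in the first weeks of life, and cultures of neonatal heart can also hold dividing cells of other types.

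A list of 39 such genes was set against the probe sets whose platform annotation gives exactly 1 gene symbol. Probe sets matched 35 of the listed genes, of 14324 genes in all, and Ccnd3, Mcm3, Mcm4 and Chaf1a were not analysed here. Rrm2 had 2 probe sets, which makes 36 of 27342 probe sets. All 35 symbols were the same in the RefSeq gene table of the assembly GRCr8.

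The samples were monolayers of heart cells isolated by enzyme digestion from Sprague-Dawley rat pups aged 2 days. After 3 days in culture, 6 cultures received 50 µg/mL DEHP, di(2-ethylhexyl) phthalate, in 0.1% DMSO, and 6 received the 0.1% DMSO vehicle alone. DEHP is a plasticizer that leaches out of soft medical plastics, and exposure lasted 3 days. All cells came from 1 litter, so the tests measure the spread between cultures and arrays and not between litters. RNA of each culture was read on 1 Affymetrix array.

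The deposited values are ratios to the probe set's own median over the 12 arrays, and every value below is the log2 of such a ratio or a difference of 2 such values. They carry no expression level, so no gene can be called high or low against another and the presence of the labelled cell type could not be checked. All 15 cardiomyocyte markers set for that check had a probe set. A difference passed at an adjusted p under 0.05 by limma, with Benjamini-Hochberg adjustment over all 27342 probe sets. Log2 folds are DEHP over control, given ± SE with n = 6 arrays a group. Because of the centring on the median, a gene whose groups do not overlap has its highest DEHP value and its lowest control value equally far from 0.

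DEHP replicate 6 and control replicate 5 stood apart from the other arrays over all probe sets. Their log2 ratios had an SD of 0.27 in DEHP replicate 6 and of 0.37 in control replicate 5, while the SD lay between 0.15 and 0.19 for the other 5 DEHP arrays and between 0.15 and 0.18 for the other 5 controls.

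Under DEHP, 21 of the 35 genes fell, 0 rose and 14 did not pass (limma). Over all 14324 genes, 10.2% fell and 14.4% rose. At an unadjusted p under 0.05 (limma), 0 of the 35 had risen, against 2946 of all 14324 genes. In such bulk samples, fewer cells of a type and less RNA per cell cannot be told apart. The median log2 fold of the 35 genes was −0.26, against −0.018 over all genes tested. Below 0 were 33 of the 35 log2 folds, against 55.4% over all genes. Only Rrm2, Mcm5 and Chek1 fell by a fold of at least 1.5, which 2.79% of all genes did. In 14 of the 35 genes all 6 DEHP arrays lay below all 6 control arrays, as they did in 6.88% of all genes. With DEHP replicate 6 and control replicate 5 both left out, 23 genes fell, against 12.7% of all genes, and 19 of the 23 were among the 21. Without these arrays Gins2 (−0.19, limma adjusted p = 0.0654) and Rrm1 (−0.12, limma adjusted p = 0.0739) no longer passed, and Mcm7, Pcna, Tyms and Brca1 did. Tested against a minimum fold of 1.2, 5 genes fell, namely Ccnd1, Cdc6, Mcm5, Rrm2 and Chek1, against 3.11% of all genes. At an adjusted p under 0.01, 15 fell, against 7.22%, and after quantile normalization 24 fell, against 12.1%.

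**Figure D1:**
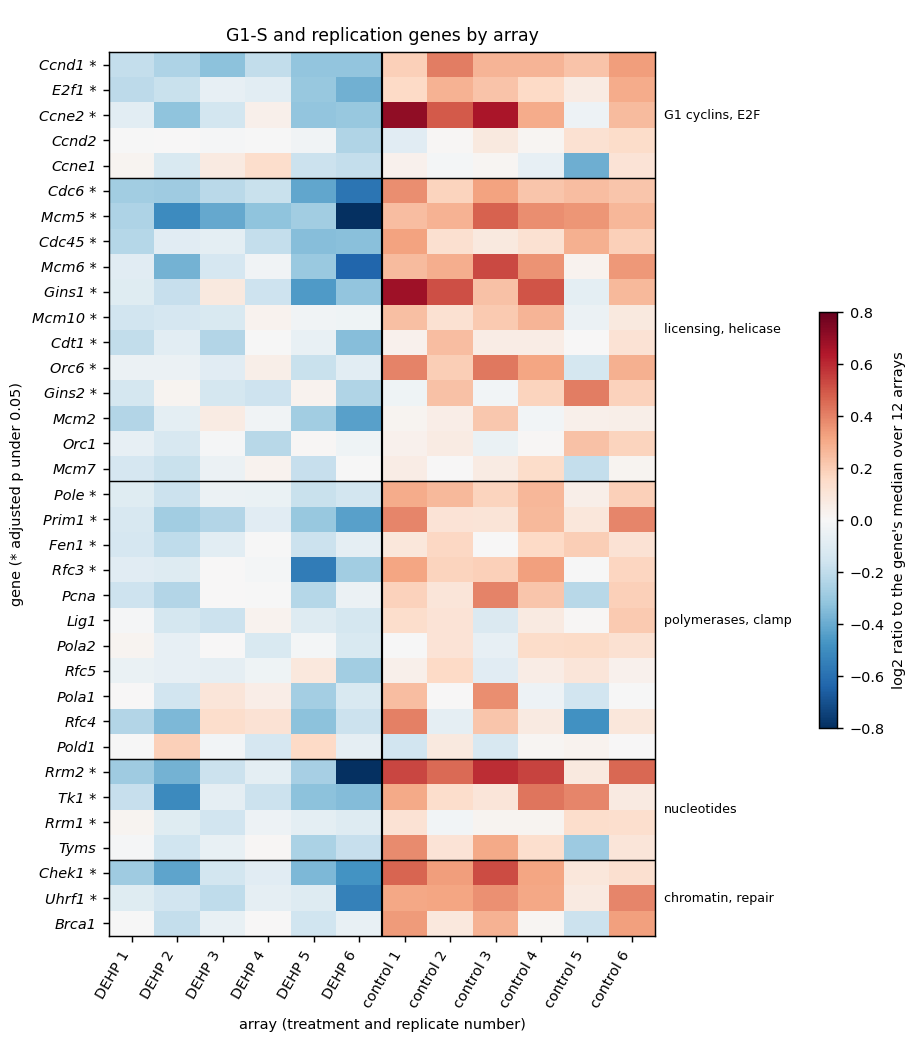
Log2 ratio of each of the 35 genes (rows, by role) in each array (columns, 6 DEHP arrays left of 6 control arrays), where blue is below and red above the gene's median. Asterisks mark the 21 genes that passed, and control replicate 5 is paler than or opposite to the other controls in many rows.

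**Figure D2:**
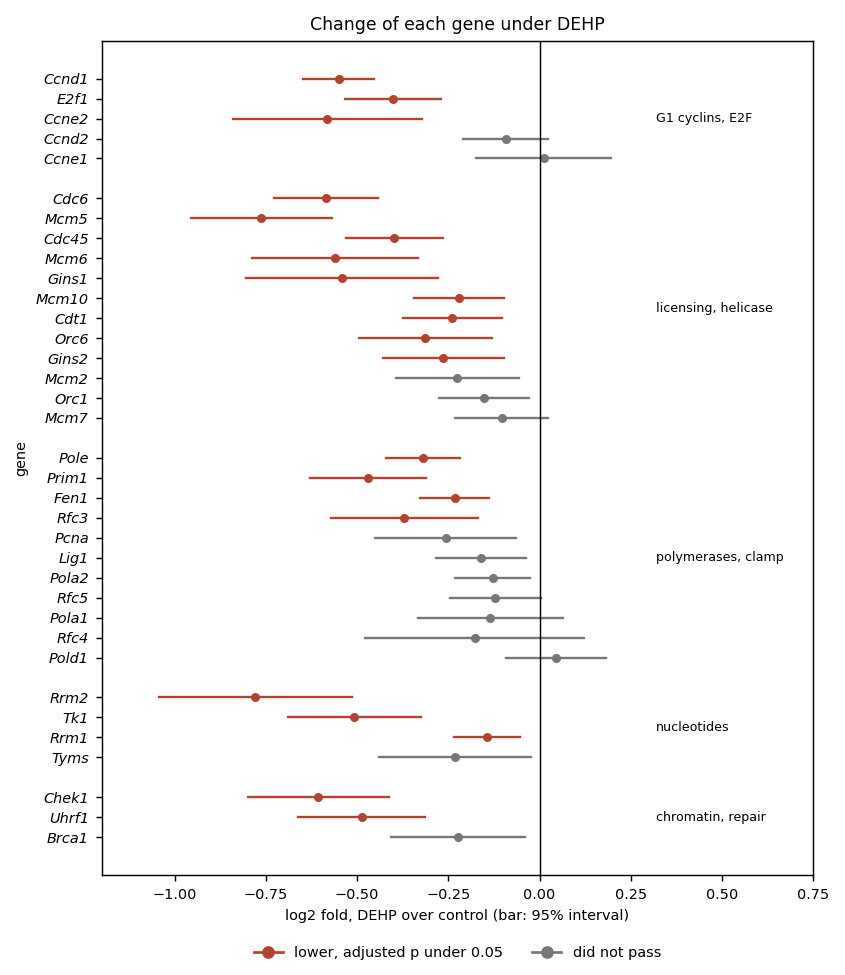
Log2 fold of each gene, DEHP over control, with its 95% interval from limma (n = 6 arrays a group), ordered by p within each role. Red genes passed at an adjusted p under 0.05, from Rrm2 at −0.78 to Rrm1 at −0.14, and only Ccne1 and Pold1 have a fold above 0.

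Among the G1 cyclins, Ccnd1 and Ccne2 fell and Ccnd2 and Ccne1 did not pass. Ccnd1 encodes cyclin D1, a partner of the kinases CDK4 and CDK6 that carries growth signals into the cycle. Its values in DEHP arrays (probe set 10727260) were −0.33 at the lowest, −0.28 at the median and −0.19 at the highest, against 0.19, 0.27 and 0.41 in control arrays. No DEHP array reached any control array, and the gap between the groups was wider than the range within either. Ccnd1 was 1.46-fold lower under DEHP (log2 fold −0.55 ± 0.044, limma adjusted p = 2.15e-06), the smallest p among the 35 genes. Cyclin D2, encoded by Ccnd2 (probe set 10865782), works with the same kinases. Ccnd2 was at −0.24 at the lowest, −0.0062 at the median and 0.0037 at the highest in DEHP arrays and at −0.093, 0.046 and 0.15 in controls. The groups overlapped, and the lowest DEHP value, in replicate 6, lay far from the other DEHP arrays. The log2 fold of −0.092 ± 0.054 did not pass (limma adjusted p = 0.298, 95% interval −0.21 to 0.024). Without DEHP replicate 6 it was −0.053, and −0.038 without control replicate 5 as well.

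The E-type cyclins activate CDK2 at the start of S phase and are classical E2F targets. Ccne2 (probe set 10867614) ran from −0.32 to 0.043 in DEHP arrays, with a median of −0.22, and from −0.043 to 0.71 in controls, with a median of 0.39. Control replicate 5 was the only control array within the DEHP range. Ccne2 fell by a log2 fold of −0.58 ± 0.12 (limma adjusted p = 0.00373). Ccne1 (probe set 10721176) had −0.19, −0.051 and 0.14 as its lowest, median and highest DEHP value and −0.39, 0 and 0.11 in controls, so the groups overlapped throughout. Its log2 fold was 0.011 ± 0.086 (limma adjusted p = 0.948, 95% interval −0.17 to 0.20), and −0.057 without control replicate 5, where its lowest value lay.

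E2f1, the E2F family member best known for driving S-phase entry, fell as well. Its DEHP values (probe set 10850949) were −0.39 at the lowest, −0.19 at the median and −0.063 at the highest, against 0.063, 0.19 and 0.30 in controls, with no overlap. The log2 fold was −0.40 ± 0.061 (limma adjusted p = 0.000422).

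Whether the cyclins differed in response was tested on the array-wise difference between 2 genes, over all 924 splits of the 12 arrays and for 6 pairs of cyclins. Ccnd1 minus Ccnd2 was −0.22 ± 0.090 in DEHP arrays and 0.24 ± 0.10 in controls (SD, n = 6 each). The difference of −0.46 ± 0.055 (SE) passed (exact permutation test, two-sided, adjusted p = 0.00433 over the 6 pairs). Ccnd1 also fell relative to Ccne1 (−0.56 ± 0.084), and Ccne2 fell relative to Ccne1, where Ccne1 minus Ccne2 differed by 0.59 ± 0.084, both with an exact permutation adjusted p of 0.00433. For these 3 pairs the unadjusted p of 0.00216 is the smallest that 6 arrays against 6 can give. Ccnd2 minus Ccne2 differed by 0.49 ± 0.15 (exact permutation adjusted p = 0.0227). The remaining pairs did not pass, with 0.030 ± 0.13 for Ccnd1 minus Ccne2 (exact permutation adjusted p = 0.823) and −0.10 ± 0.10 for Ccnd2 minus Ccne1 (exact permutation adjusted p = 0.444). Each pair compares 2 different probe sets. The ratios carry no expression level, so whether the probe sets differed in signal over background was not tested.

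**Figure D3:**
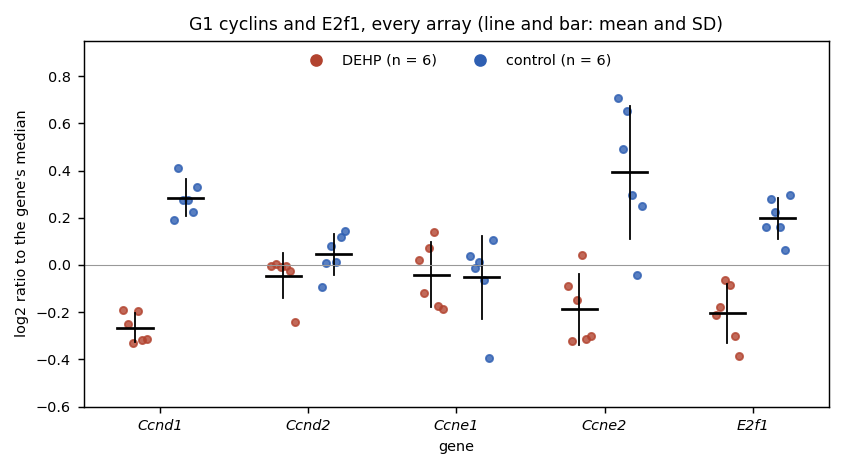
Log2 ratio in every array for the 4 measured G1 cyclins and E2f1, with DEHP arrays (red) left of control arrays (blue), and the mean and SD of 6 arrays as black lines. Ccnd1 and E2f1 separate completely, Ccne2 separates except for 1 array on each side, and Ccnd2 and Ccne1 overlap.

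Origin licensing loads the MCM ring onto DNA in G1, and in S phase the ring becomes part of the active helicase. Of the 12 measured genes of licensing and the helicase, 9 fell, 0 rose and 3 did not pass, with a median log2 fold of −0.29. Cdc6 and Cdt1 are the loaders of the ring. Cdc6 (probe set 10738118) had DEHP values of −0.58 at the lowest, −0.28 at the median and −0.18 at the highest, and control values of 0.18, 0.24 and 0.37. It fell by just under 1.5-fold with no overlap between groups (log2 fold −0.58 ± 0.066, limma adjusted p = 3.5e-05). Cdt1 fell as well (−0.24 ± 0.062). Of the origin recognition complex, Orc6 fell (−0.31 ± 0.084), while Orc1, its ATPase subunit, was at −0.15 ± 0.057 and did not pass.

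Of the 4 measured subunits of the MCM ring, Mcm5 and Mcm6 fell, and Mcm2 and Mcm7 did not pass. Mcm5 (probe set 10806129) was at −0.83 at the lowest, −0.37 at the median and −0.24 at the highest in DEHP arrays, against 0.24, 0.32 and 0.47 in controls. Replicate 6 was the lowest DEHP array, and the groups did not overlap. The fall was 1.70-fold (log2 fold −0.76 ± 0.089, limma adjusted p = 5.2e-05). Mcm6 fell by a log2 fold of −0.56 ± 0.11. Mcm2 had a log2 fold of −0.23 ± 0.078 (limma adjusted p = 0.0656) and Mcm7 of −0.10 ± 0.059 (limma adjusted p = 0.285). Without DEHP replicate 6 and control replicate 5, Mcm7 was at −0.16 and passed (limma adjusted p = 0.0349), as it did with array weights (0.0351), while Mcm2 passed in neither. A difference in response between the subunits was not tested.

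The promoters of these 4 subunits and of Chek1, the gene with the smallest p among those of chromatin copying and repair, are shown because E2F is the textbook activator of the ring's genes and some subunits passed and others did not. Each window holds 250 bases before and 50 bases after the gene's start, from RefSeq on the build GRCr8, written 5′ to 3′ on the gene's strand. Capitals mark matches to the E2F motif, searched on both strands as TTTCCCGC, TTTCGCGC, TTTGCCGC and TTTGGCGC. Matches on opposite strands can overlap, as in Mcm2, Mcm5 and Mcm6, and none of these letters is a measured binding site.
Mcm5: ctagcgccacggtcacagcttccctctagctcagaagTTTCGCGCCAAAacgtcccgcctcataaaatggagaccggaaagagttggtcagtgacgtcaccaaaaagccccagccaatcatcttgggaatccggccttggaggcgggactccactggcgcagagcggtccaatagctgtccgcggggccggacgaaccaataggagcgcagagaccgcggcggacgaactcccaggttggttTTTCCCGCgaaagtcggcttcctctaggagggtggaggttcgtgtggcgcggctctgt
Mcm6: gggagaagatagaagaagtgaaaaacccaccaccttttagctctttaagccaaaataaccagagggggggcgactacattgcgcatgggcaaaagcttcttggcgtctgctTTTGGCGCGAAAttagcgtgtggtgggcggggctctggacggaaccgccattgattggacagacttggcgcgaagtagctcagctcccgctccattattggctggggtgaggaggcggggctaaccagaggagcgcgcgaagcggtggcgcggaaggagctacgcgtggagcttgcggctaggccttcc
Mcm2: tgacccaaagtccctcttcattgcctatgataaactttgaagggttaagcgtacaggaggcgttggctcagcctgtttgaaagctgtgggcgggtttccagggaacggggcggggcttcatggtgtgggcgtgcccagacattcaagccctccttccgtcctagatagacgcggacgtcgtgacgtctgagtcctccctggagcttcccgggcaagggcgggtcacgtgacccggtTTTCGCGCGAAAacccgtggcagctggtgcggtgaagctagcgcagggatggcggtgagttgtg
Mcm7: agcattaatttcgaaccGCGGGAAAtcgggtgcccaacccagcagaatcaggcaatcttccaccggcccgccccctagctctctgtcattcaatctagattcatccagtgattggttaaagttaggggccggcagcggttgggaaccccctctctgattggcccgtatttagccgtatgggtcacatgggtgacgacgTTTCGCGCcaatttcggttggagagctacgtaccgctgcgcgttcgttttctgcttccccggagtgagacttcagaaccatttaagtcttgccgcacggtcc
Chek1: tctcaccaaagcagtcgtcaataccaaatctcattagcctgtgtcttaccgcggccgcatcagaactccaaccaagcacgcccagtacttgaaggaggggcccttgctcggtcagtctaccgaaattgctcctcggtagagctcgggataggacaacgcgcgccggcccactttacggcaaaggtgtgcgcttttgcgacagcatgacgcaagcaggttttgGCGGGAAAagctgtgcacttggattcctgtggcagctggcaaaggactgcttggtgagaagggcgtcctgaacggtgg
The windows lie at chr19:13488563-13488862 on the plus strand for Mcm5, chr13:42404303-42404602 on the minus strand for Mcm6, chr4:122918045-122918344 on the minus strand for Mcm2, chr12:22163129-22163428 on the minus strand for Mcm7 and chr8:44629794-44630093 on the minus strand for Chek1. Matches numbered 3 in Mcm5, 2 each in Mcm6, Mcm2 and Mcm7, and 1 in Chek1.

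RefSeq windows matched 28 of the 35 genes, and Ccnd1, Ccnd2, Ccne2, E2f1, Cdc6, Orc1 and Rrm2 were not analysed here. An E2F match stood in 12 of the 28 (42.9%), against 2.74% of 21851 windows of protein-coding genes. Listed genes were counted by 1 window each, while the 21851 windows belong to 19005 genes, some with several. By call, a match stood in 7 of the 16 windows of genes that fell and in 5 of the 12 windows of genes that did not pass. CCAAT, the box bound by NF-Y, stood in 17 of the 28 windows (60.7%) and in 38.0% of all. The letters TTTGAA, a form of the CHR element known from mitotic promoters, stood in 1 of the 28 windows, in 19 of 27 windows of the mitosis genes listed for comparison and in 17.1% of all. Each of the 3 motifs was counted on its own, whether or not its positions overlapped those of another. Median GC content was 59.8% in the 28 windows and 55% in all.

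Cdc45 and the GINS proteins join the MCM ring to form the active helicase, and Mcm10 helps it start. Cdc45 (probe set 10755992) was at −0.34 at the lowest, −0.21 at the median and −0.076 at the highest in DEHP arrays and at 0.076, 0.16 and 0.32 in controls, without overlap. Its log2 fold was −0.40 ± 0.061 (limma adjusted p = 0.000438). Gins1 (−0.54 ± 0.12) and Mcm10 (−0.22 ± 0.057) fell with groups that overlapped, and in both control replicate 5 lay below the highest DEHP array. Gins2 also fell (−0.26 ± 0.076, limma adjusted p = 0.0291). That call did not hold in 7 of the 12 comparisons that left out 1 array, namely DEHP replicates 1, 3, 4 and 6 and control replicates 2, 4 and 6, in which its log2 fold ran from −0.26 to −0.24 (limma adjusted p up to 0.0654).

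Of 11 genes for DNA synthesis at the fork, 4 fell, 0 rose and 7 did not pass, with a median log2 fold of −0.18. Pole, the catalytic subunit of the leading-strand polymerase epsilon, had DEHP values (probe set 10763021) of −0.18 at the lowest, −0.12 at the median and −0.046 at the highest, against 0.046, 0.22 and 0.30 in controls. Groups were apart, and the log2 fold was −0.32 ± 0.047 (limma adjusted p = 0.000311). Prim1, the primase that lays down the RNA primer (probe set 10892939), was at −0.43 at the lowest, −0.26 at the median and −0.092 at the highest in DEHP arrays and at 0.092, 0.18 and 0.39 in controls. It fell by 1.38-fold without overlap (log2 fold −0.47 ± 0.073, limma adjusted p = 0.00052).

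Fen1, the nuclease that trims Okazaki fragments (probe set 10728644), had DEHP values of −0.20 at the lowest, −0.11 at the median and −0.0029 at the highest, and 0.0029, 0.14 and 0.19 in controls. The groups just failed to overlap, and the log2 fold was −0.23 ± 0.044 (limma adjusted p = 0.00218). Rfc3 of the clamp loader fell (−0.37 ± 0.093), with its lowest value, −0.56, in DEHP replicate 5. The other loader subunits Rfc4 (−0.18 ± 0.14) and Rfc5 (−0.12 ± 0.058) did not pass. Single arrays moved both, with Rfc4 at −0.28 without control replicate 5 and −0.10 without control replicate 1, and Rfc5 at −0.079 without DEHP replicate 6. Pcna, the sliding clamp that is often read as a proliferation marker, was at −0.26 ± 0.089 and did not pass (limma adjusted p = 0.0654). Its lowest control value, −0.22 in replicate 5, lay among the lowest DEHP values, and without that array the log2 fold was −0.33 (limma adjusted p = 0.00239). DEHP replicate 5, whose deviations over all probe sets correlated at 0.77 with those of control replicate 5, was also low for Pcna (−0.23) and was kept. Pcna passed in only this 1 of the 12 comparisons that left out 1 array (limma adjusted p up to 0.130). Neither the polymerase alpha subunits Pola1 (−0.13 ± 0.092) and Pola2 (−0.13 ± 0.047) nor the ligase gene Lig1 (−0.16 ± 0.057) passed, and Pola1 was at −0.075 without control replicate 3. Without control replicate 3, Lig1 was at −0.20 (limma adjusted p = 0.0158), Pola2 at −0.16 (adjusted p = 0.0256) and Orc1 at −0.18 (adjusted p = 0.0498), and Mcm2 was at −0.27 without DEHP replicate 3 (adjusted p = 0.0238). Each of these genes passed in only 1 of the 12 comparisons that left out 1 array. Their limma adjusted p there ran up to 0.150 for Lig1, 0.177 for Pola2, 0.190 for Orc1 and 0.132 for Mcm2. Pold1, the catalytic subunit of polymerase delta, was at 0.046 ± 0.064 with a 95% interval of −0.092 to 0.18, and ran from 0.011 to 0.077 with single arrays left out.

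In nucleotide synthesis, Rrm2, Tk1 and Rrm1 fell and Tyms did not pass. Ribonucleotide reductase, which makes deoxynucleotides, is built of the large subunit Rrm1 and the small subunit Rrm2, whose level rises in S phase. Rrm2 (probe set 10810144) was at −0.85 at the lowest, −0.27 at the median and −0.076 at the highest in DEHP arrays, against 0.076, 0.50 and 0.59 in controls. DEHP replicate 6 was the lowest of all, and control replicate 5 lay far below the other controls without reaching the DEHP arrays. Rrm2 was 1.72-fold lower (log2 fold −0.78 ± 0.12, limma adjusted p = 0.000548), the largest fall of the 35 genes, and its second probe set gave −0.82 ± 0.12. Rrm1 (probe set 10773201) ran over −0.15, −0.088 and 0.024 in DEHP arrays and −0.020, 0.071 and 0.14 in controls, with overlap (lowest, median and highest). Its log2 fold of −0.14 ± 0.042 passed (limma adjusted p = 0.0296), but not when DEHP replicate 2, 3 or 6 or control replicate 1 or 6 was left out, where it was −0.14 to −0.13 (limma adjusted p up to 0.0717).

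Tk1, the thymidine kinase of the salvage route (probe set 10849228), had DEHP values of −0.51 at the lowest, −0.26 at the median and −0.074 at the highest, and 0.074, 0.22 and 0.43 in controls. No array of either group crossed over, and the log2 fold was −0.51 ± 0.084 (limma adjusted p = 0.000798). Tyms, thymidylate synthase, was at −0.23 ± 0.10 (limma adjusted p = 0.131). Without control replicate 5 its log2 fold was −0.31 (limma adjusted p = 0.00438), while DEHP replicate 5, also low at −0.26, was kept. Tyms passed in only this 1 of the 12 comparisons that left out 1 array (limma adjusted p up to 0.230).

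For chromatin copying and repair, Chek1 and Uhrf1 fell and Brca1 did not pass. Chek1, the kinase of the replication checkpoint (probe set 10916110), was at −0.48 at the lowest, −0.32 at the median and −0.088 at the highest in DEHP arrays and at 0.088, 0.33 and 0.52 in controls. The groups were apart and the fall was 1.52-fold (log2 fold −0.61 ± 0.089, limma adjusted p = 0.000321). Uhrf1, which carries DNA methylation over to the new strand (probe set 10931457), had DEHP values of −0.54 at the lowest, −0.13 at the median and −0.070 at the highest, and 0.070, 0.31 and 0.39 in controls. The log2 fold was −0.49 ± 0.080 (limma adjusted p = 0.0008), with the lowest value of each group again in DEHP replicate 6 and control replicate 5. Brca1, of homologous recombination (probe set 10747640), was at −0.19, −0.058 and 0.0043 in DEHP arrays and −0.17, 0.18 and 0.34 in controls (lowest, median and highest). Control replicate 5 was the lowest control and lay inside the DEHP range, and the log2 fold was −0.22 ± 0.085 (limma adjusted p = 0.0951) with all arrays and −0.29 without that array (adjusted p = 0.00755). DEHP replicate 5, also low for Brca1 (−0.16), was kept there. Brca1 passed in only this 1 of the 12 comparisons that left out 1 array (limma adjusted p up to 0.193).

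The same few arrays held the extremes of many of these genes. Within the DEHP group, replicate 6 held the lowest value in 15 of the 35 genes, against 27.7% of all genes, and replicate 4 the highest in 16, against 13.8% of all. Among controls, replicate 5 held the lowest value in 20 of the 35, against 39.5% of all genes, and the highest in 5, against 35.7%. The median of the 35 genes ran from −0.24 in replicate 6 to −0.037 in replicate 4 among DEHP arrays, and from 0.046 in replicate 5 to 0.24 in replicate 1 among controls. These shares are descriptions, since the genes of an array are not independent.

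Of 98 further genes of the same pathway listed for comparison, 74 were measured, of which 20 fell, 8 rose and 46 did not pass, with a median log2 fold of −0.10. The shares over all genes tested were 10.2% for falls and 14.4% for rises. In G1-S control, 5 of 21 fell and 3 rose. Cdkn1c, the kinase inhibitor p57, rose (0.88 ± 0.071, limma adjusted p = 2.11e-06) and E2f7, an E2F family repressor, fell (−0.38 ± 0.057). The kinase inhibitor p21, Cdkn1a (0.25 ± 0.055), and the retinoblastoma gene Rb1 (0.38 ± 0.12), chosen after their values were seen, were the other rises. Of the 6 kinase inhibitors measured in that list 2 rose, 1 fell, namely Cdkn2c (−0.32 ± 0.10, encoding p18), and 3 did not pass. Cyclin A2, Ccna2, which takes over from cyclin E within S phase and was also chosen so, fell (−0.82 ± 0.13). Among the other licensing and fork genes, 5 of 15 fell and 1 rose. The smallest p belonged to geminin, Gmnn, the inhibitor of Cdt1 (−0.67 ± 0.050), and to Gins4 (−0.50 ± 0.079), and the largest fall to the topoisomerase gene Top2a (−0.77 ± 0.17).

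Polymerase, clamp loader and repair genes outside the 35 went both ways, with 2 falls and 3 rises among 13. Rfc1, the large subunit of the clamp loader, rose (0.33 ± 0.074) and Rpa2 of the single-strand binding protein fell (−0.30 ± 0.070). In nucleotide synthesis 3 of 11 fell and 1 rose, with falls of Ctps1, CTP synthase (−0.42 ± 0.057), and Dtymk, thymidylate kinase (−0.46 ± 0.065). The rise was that of Rrm2b, the reductase subunit that p53 induces and that resting cells use (0.42 ± 0.13, limma adjusted p = 0.0401), named here because it stood opposite to Rrm2. Of 14 further chromatin and repair genes 5 fell and 0 rose, and the histone chaperone gene Asf1b (−0.68 ± 0.071) and Bard1, the partner of Brca1 (−0.48 ± 0.093), had the smallest p.

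Mitosis genes are the list closest in kind. Of 33 measured, 29 fell, 0 rose and 4 did not pass, with a median log2 fold of −0.73, and 25 had all DEHP arrays below all controls. Ccnb2, a B-type cyclin (−1.11 ± 0.082), and Cdc20, the mitotic co-activator of APC/C (−0.85 ± 0.068), had the lowest p-values. The G1-S and replication genes had a median closer to 0, at −0.26, and fell in 60% of cases, against 87.9% of the mitosis genes. The difference between the lists was not tested.

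**Figure D4:**
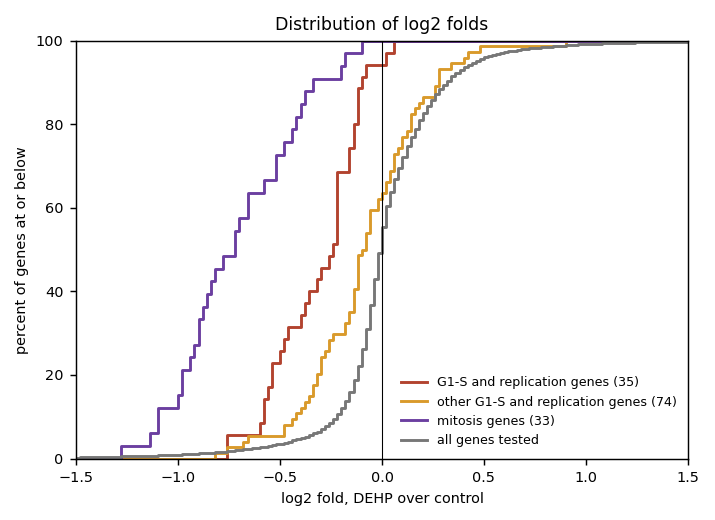
Percent of genes (vertical axis) with a log2 fold, DEHP over control, at or below the value on the horizontal axis, for the 35 genes, 74 other genes of the pathway, 33 mitosis genes and all 14324 genes. The medians are −0.26 for the 35 genes, −0.73 for the mitosis genes and −0.018 for all genes. Below −0.78, where 1.65% of all genes lie, the curve of the 35 genes is at 0, and above that it lies between the other curves named or meets them.

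Marker lists of the cell types such a culture could hold were set beside the result, where 10.2% of all genes fell and 14.4% rose. Of these lists, the smooth muscle and myofibroblast markers had the widest gap between the groups. Of 11 markers 10 were measured, 9 fell and 0 rose, also 0 at an unadjusted p under 0.05, where 2946 of all 14324 genes rose. The mean log2 ratio of these markers ran from −1.10 to −0.52 in DEHP arrays and from 0.51 to 0.68 in controls. Fibroblast markers went both ways, with 6 falls and 5 rises among 12, and means of −0.26 to 0.052 in DEHP arrays against −0.062 to 0.086 in controls. Cardiomyocyte markers had 6 falls and 4 rises among 15, and means of −0.37 to 0.17 in DEHP arrays against −0.10 to 0.12 in controls.

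Endothelial markers had 1 fall and 3 rises among 7 measured of 11, with means of −0.23 to 0.43 in DEHP arrays and −0.26 to 0.093 in controls. Leukocyte markers had 1 fall and 2 rises among 11 (−0.12 to 0.085 in DEHP arrays, −0.12 to 0.10 in controls), and epicardial markers 1 fall and 3 rises among 5 measured of 6 (−0.041 to 0.31 in DEHP arrays, −0.13 to 0.054 in controls). The share of falls, 9.09% of the leukocyte and 14.3% of the endothelial markers, lay near the 10.2% over all genes. Of 7 Schwann cell and neuronal markers 5 were measured, of which 1 fell and 0 rose, with means of −0.20 to −0.019 in DEHP arrays and 0.045 to 0.21 in controls. The fall was that of Tubb3, a tubulin gene of neurons (−0.99 ± 0.11), and the median log2 fold of the 5 was −0.024. The medians of the 5 by array overlapped, at −0.14 to 0.0020 in DEHP arrays and −0.0054 to 0.32 in controls. The part of any of these in the fall of the G1-S and replication genes was not tested. Whether a defining marker is absent cannot be read from ratios.

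**Figure D5:**
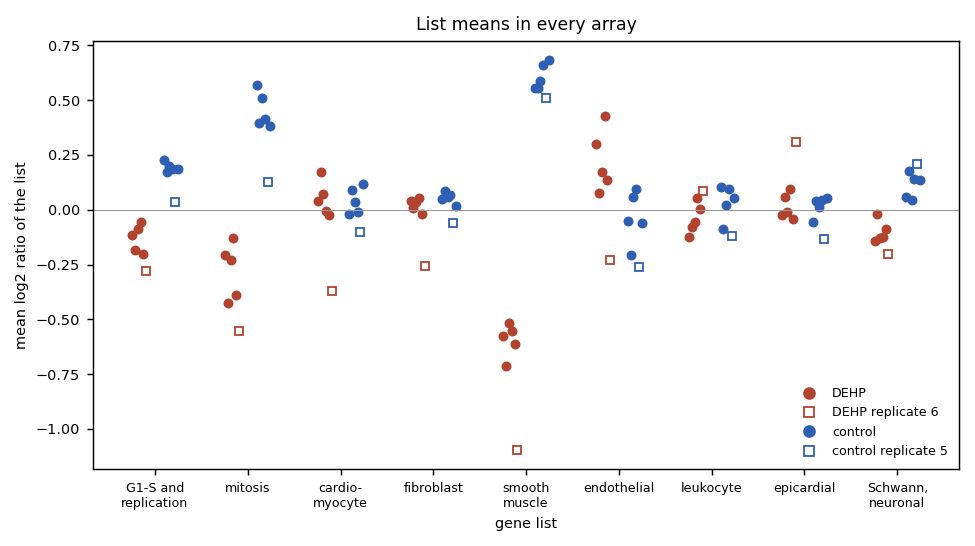
Mean log2 ratio of each gene list (horizontal axis) in each array, with DEHP arrays (red) left of control arrays (blue), and DEHP replicate 6 and control replicate 5 as open squares. The 35 G1-S and replication genes, the mitosis genes and the smooth muscle markers separate the groups in every array, as do the Schwann and neuronal markers by a smaller gap that Tubb3 carries, while the cardiomyocyte, fibroblast and leukocyte markers overlap.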

How the data were processed

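RNA of 12 cultures was measured on Affymetrix arrays, 6 DEHP and 6 control. Per the submitters' processing notes the authors used RMA, which corrects background, normalizes and summarizes probes, of no stated version. What they deposited are linear ratios. In the file the median log2 ratio of every probe set over the 12 arrays lay within 5e-07 of 0, so the ratio is to that median, a step that keeps differences between groups. Signal over background is not known, and the number of arrays limits the precision.

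Of 27342 probe sets, 15097 had 1 gene symbol, 323 several and 11922 none in the platform annotation. A gene took its lowest-numbered probe set. The log2 ratios were compared by limma 3.58.1 in R 4.3.3 (lmFit, eBayes, two-sided) over all arrays and probe sets, with no covariate, since the labels name no batch. Tested on simulated arrays of this comparison, in which 200 of 27342 probe sets were given a change, the fit recovered 82% where the log2 fold was 0.5 and 98% where it was 1. The noise was drawn independently for each probe set and array, without deviations shared within an array. In the real arrays 24.6% of all genes passed, a larger share than was simulated. Smaller log2 folds, such as the median of −0.26 of the 35 genes, were not simulated. Every measured gene of the list is named. The values by array are given for the G1 cyclins, E2f1 and the 3 genes with the smallest p of each other role, and the 2 genes with the smallest p are named from each list of other pathway genes and of mitosis genes, with Cdkn1a, Cdkn2c, Rb1, Ccna2, Top2a, Rrm2b and Tubb3 added after their values were seen. The genes, lists and tests were chosen with earlier results of these data known. Alternatives were quantile normalization, median centring, robust eBayes, array weights, the replicate number as a block, the mean of a gene's probe sets, a stricter threshold, a minimum fold of 1.2 and arrays left out. A filter on dim probe sets could not be run on ratios. Plots were drawn with matplotlib 3.10.9.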

Additional observations from a re-analysis of the deposited data

Results flagged for a closer look

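Single arrays lay far from the other 5 of their group in 6 of 70 groups of values (35 genes in 2 groups), by Dixon's test at the 95% level, which chance alone passes in about 1 of 20 groups. Of the 6 values, 2 were in DEHP replicate 6, 3 in control replicate 5 and 1 in control replicate 3. Ccnd2 was low in DEHP replicate 6 (−0.24 against −0.025 to 0.0037 elsewhere in that group), as was Uhrf1 (−0.54 against −0.21 to −0.070). In control replicate 5, Ccne1 (−0.39 against −0.065 to 0.11 in the other controls), Rrm2 (0.076 against 0.45 to 0.59) and Uhrf1 (0.070 against 0.31 to 0.39) were low. Mcm2 was high in control replicate 3 (0.22 against −0.021 to 0.055).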

How the results depend on the processing

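The count of 21 falls (10.2% of all genes) was 24 after quantile normalization (12.1% of all genes) and 27 with array weights (15.2% of all genes). It was 21 after median centring, 21 with robust eBayes and 21 with the mean of a gene's probe sets. At an adjusted p under 0.01 it was 15 (7.22% of all genes). Against a minimum fold of 1.2 it was 5, where 3.11% of all genes fell. Leaving out each array in turn gave 19 to 24 falls. The share over all genes was not counted for these comparisons, nor for median centring, robust eBayes or the mean of probe sets. Without DEHP replicate 6 and control replicate 5, 23 genes fell (12.7% of all genes). No gene rose under any of these settings. All 4 cyclin pairs that differed did so under each alternative run except at an adjusted p under 0.01, where 3 did. Ccne1 changed sign, to −0.015 after quantile normalization and −0.028 without those 2 arrays, and ran from −0.057 to 0.043 with single arrays left out. It passed in none of these. With the replicate number as a block, 27 genes fell (12.8% of all genes), Orc1, Mcm2, Pcna, Lig1, Tyms and Brca1 being the additions, and 4 cyclin pairs differed. For these pairs the signs of the 6 same-numbered differences were flipped in all ways. Each of the 4 had the smallest p that this exact sign-flip test can give (0.03125, adjusted p = 0.0469). The labels do not say that the numbers pair cultures. Same-numbered arrays deviated together with correlations of 0.072 to 0.77, and 2 of the 6 DEHP arrays correlated best with the control of their own number.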
